A study of Danio rerio with 8 samples.

Results

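RNA-seq of whole zebrafish embryos at 48 hpf (hours post-fertilization) was compared between crg mutants and their WT siblings, which are 2 of the 8 samples of the study. The crg allele, crg(nl18), is a recessive mutation in a splice donor of hdac1 that came from an ENU mutagenesis screen, and all embryos had the strain label AB/TU. Neither the labels nor the methods say how many embryos went into a library or which genotypes the WT siblings had. Each condition has 1 library, so no difference below has a replicate check, no p-value is given, and the intervals cover counting error only. The table lists 31172 genes, and the 19888 genes whose normalized count averaged 10 or more across the 4 whole-embryo libraries were described in both directions, by tissue and by function. The other whole-embryo libraries, also 48 hpf and AB/TU, are embryos deficient in the retinoic acid-degrading enzymes Cyp26a1 and Cyp26c1 and a WT control of their own. They served for scaling and the filter, and that WT control as a second WT level. For Cyp26 deficiency the methods list morpholino oligonucleotides against cyp26a1 and cyp26c1, with a p53 morpholino in all injections.

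Hdac1 is a class I histone deacetylase. It removes acetyl groups from histone tails and acts within corepressor complexes (Sin3, NuRD and CoREST), which transcription factors recruit to genes that are to be kept silent. In zebrafish, hdac1 loss is known to disturb the exit of retinal and hindbrain progenitors from the cell cycle, the pharyngeal skeleton, the fins and the liver and pancreas.

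The hdac1 gene (ENSDARG00000015427, Zv9 chromosome 19, 31054097 to 31064046) had 3757 counts in WT siblings and 1948 in crg mutants. Counts are given throughout as deposited, WT siblings first. Equal levels correspond to 1.27 times as many counts in crg mutants as in WT siblings after scaling by median-of-ratios size factors, and the log2 fold change of hdac1, with a pseudocount of 1 normalized count, was -1.29 (95% exact counting interval -1.37 to -1.21). The other WT control, a deeper library, had 15658 counts, and against it hdac1 was lower by -2.14 on the log2 scale. Gene counts summed to 11070210 in WT siblings and 12545823 in crg mutants.

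Of the 19888 genes tested, 1279 (6.43%) were raised more than 2-fold in crg mutants and 1548 (7.78%) were lowered more than 2-fold. These shares are the background for every list below, and the median log2 fold change over all genes was 0.01. The largest changes were mostly decreases. Only 4 genes were raised more than 16-fold against 113 that were lowered by as much, and 158 were raised more than 4-fold against 470 that were lowered. Allowing for counting error, 227 raised and 564 lowered genes had an interval wholly past 2-fold. The raised genes held 0.715% of the normalized counts in WT siblings and 1.99% in crg mutants, and the lowered genes went from 5.16% to 1.93%. Scaling by total counts shifted every log2 fold change upward, the median of all genes by 0.16, and turned the split into 1830 raised and 1238 lowered genes.

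**Figure D1:**
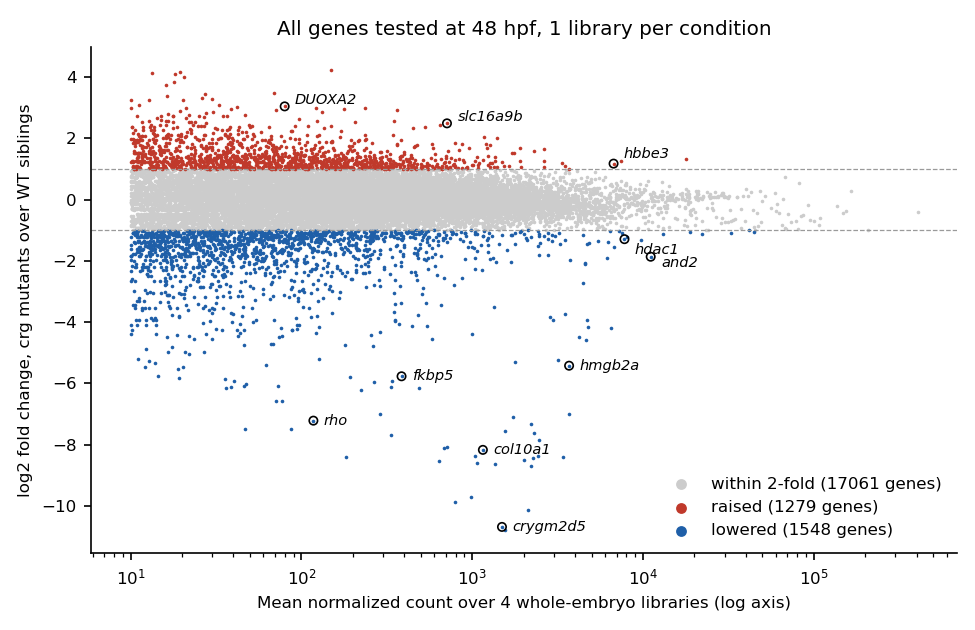
Log2 fold change of each of the 19888 genes tested (crg mutants over WT siblings) against its mean normalized count over the 4 whole-embryo libraries on a log axis, with 1 point per gene and dashed lines at 2-fold. Lowered genes reach a log2 fold change of -10.69 (crygm2d5), while the labelled raised genes DUOXA2 and slc16a9b sit at 3.05 and 2.49.

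The share of genes past 2-fold depended on expression level. Among the 2809 genes with a mean of 10 to 30 normalized counts, 14.1% were raised and 19.0% lowered. Among the 5310 genes between 300 and 1000, the shares were 2.67% and 2.98%. Above 3000, only 0.721% of 832 genes were raised but 4.57% were lowered, among them the abundant fin fold gene and2 and the globin hbae3. Genes past 2-fold were spread over all 25 chromosomes, with 4.2% to 9.54% raised and 5.31% to 10.9% lowered per chromosome. Chromosome 19, which carries hdac1, had 5.37% raised and 7.87% lowered.

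**Figure D2:**
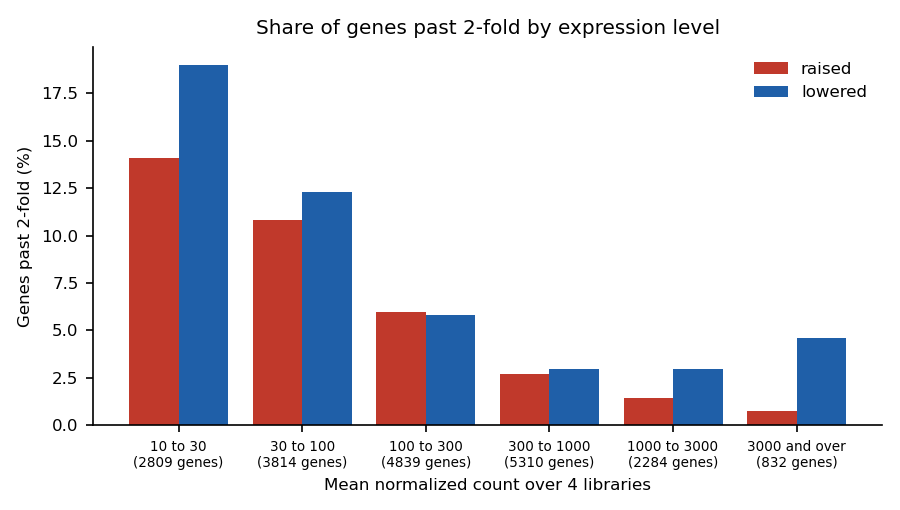
Percentage of genes raised (red) and lowered (blue) more than 2-fold in crg mutants, in 6 bins of mean normalized count, with the number of genes tested in each bin. Both shares fall from the lowest bin (14.1% and 19.0%), and in the highest bin 0.721% were raised and 4.57% lowered.

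The 2 WT libraries differed from each other more than crg mutants differed from WT siblings. Between WT siblings and the WT control of the Cyp26 comparison, 4962 genes (24.9%) were more than 2-fold apart, 2008 higher in WT siblings and 2954 lower. Of the 1548 lowered genes, 958 (61.9%) were also more than 2-fold below the other WT control and 145 (9.37%) were above it. Of the 1279 raised genes, 533 (41.7%) were also more than 2-fold above it and 383 (29.9%) were below it. What sets the WT libraries apart was not tested. Medians were computed for 76 gene lists, and 37 of them are compared below. Of these 37 list medians, 17 had the other sign against the other WT control, and its values are given beside these lists and beside many of the genes.

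The lowest medians of the 37 gene lists compared were those of the eye. In whole embryos, fewer cells of a type and less RNA per cell cannot be told apart. Of the 20 lens genes tested that are not crystallins, 13 were lowered and 0 raised, with a median log2 fold change of -2.07 (-2.24 against the other WT control), beside 30 lowered and 2 raised of 35 crystallin genes. Many of the crystallins are close copies, so reads may be shared between them. hsf4, the heat shock factor of lens fibre differentiation, had 37 counts in WT siblings and 0 in crg mutants. lgsn, lengsin of the fibre cells, went from 188 to 0 counts, at least 79.4-fold lower, and the lactase-like gene lctla from 279 to 1, at least 118-fold lower. The beaded filament gene bfsp2 followed, from 490 to 8 counts, a log2 fold change of -6.16. Its partner BFSP1, chosen after its values were seen and not in the list, had 893 and 54 counts. The lens membrane protein gene lim2.4, the most abundant of the list, had 1038 and 114 counts. Weaker but still past 2-fold were the connexin cx44.1 (81 and 36 counts) and the galectin-related grifin (79 and 38 counts).

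Photoreceptor genes were lowered in 21 of 33 cases and raised in 1, with a median log2 fold change of -1.81 (-1.79 against the other WT control). The members varied widely. rho, the rod opsin (Zv9 chromosome 8, 55706885 to 55708411), had 200 counts in WT siblings and 1 in crg mutants, at least 84.5-fold lower. The rod transcription factor nrl was at 12 and 0 counts, and the rod transducin gnat1 at 55 and 3. Other members shared by or specific to rods were within 2-fold, such as the phosphodiesterase subunit pde6a (27 and 27 counts) and the arrestin sagb (325 and 256), at -0.33 and -0.68, and both were more than 2-fold above the other WT control. Cone genes were lowered as well. The ultraviolet opsin opn1sw1 had 24 and 0 counts, the cone arrestin arr3a 86 and 5, and the cone transducin subunit gnb3a 107 and 3, at least 45.2-fold lower. Other cone genes were past 2-fold only against WT siblings, such as opn1lw2 and pde6c. They were at -2.99 and -2.02 there, but at 0.48 and -0.41 against the other WT control. cnga3a was within 2-fold of WT siblings, at -0.82, and at -1.31 against the other WT control. The transcription factors common to photoreceptors were lowered but still detected. crx, the homeobox factor of all photoreceptors, had 319 and 29 counts (log2 fold change -3.77, interval -4.40 to -3.25), its relative otx5 193 and 34, and nr2e3, which separates rods from cones, 156 and 32. The blue cone opsin opn1sw2 was the 1 raised member, at 5 and 16 counts, with an interval of -0.18 to 3.14 that spans 0.

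In the neural retina and pigment epithelium, lowered and raised genes fell into different classes. Of 37 genes tested (median 0.01, but -0.88 against the other WT control), 4 were lowered, and they mark differentiated cells. rpe65a of the visual cycle had 67 counts in WT siblings and 8 in crg mutants, the retinaldehyde binding protein gene rlbp1b 48 and 11, the bipolar cell factor vsx1 363 and 84, and pou4f3 of retinal ganglion cells and hair cells 15 and 2. The raised genes, 6 of 37, are factors of early eye field and retinal progenitors. rx1 had 57 counts in WT siblings and 232 in crg mutants, a log2 fold change of 1.67 (1.26 to 2.13). atoh7, needed for ganglion cell genesis, had 122 and 357 counts. Against the other WT control rx1 and atoh7 were at 0.53 and 0.56 on the log2 scale, and rx3, an early eye field factor, was raised over WT siblings (3 and 10 counts) but at -1.55 against it, while vsx1 and rpe65a were further below it, at -3.48 and -3.40.

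**Figure D3:**
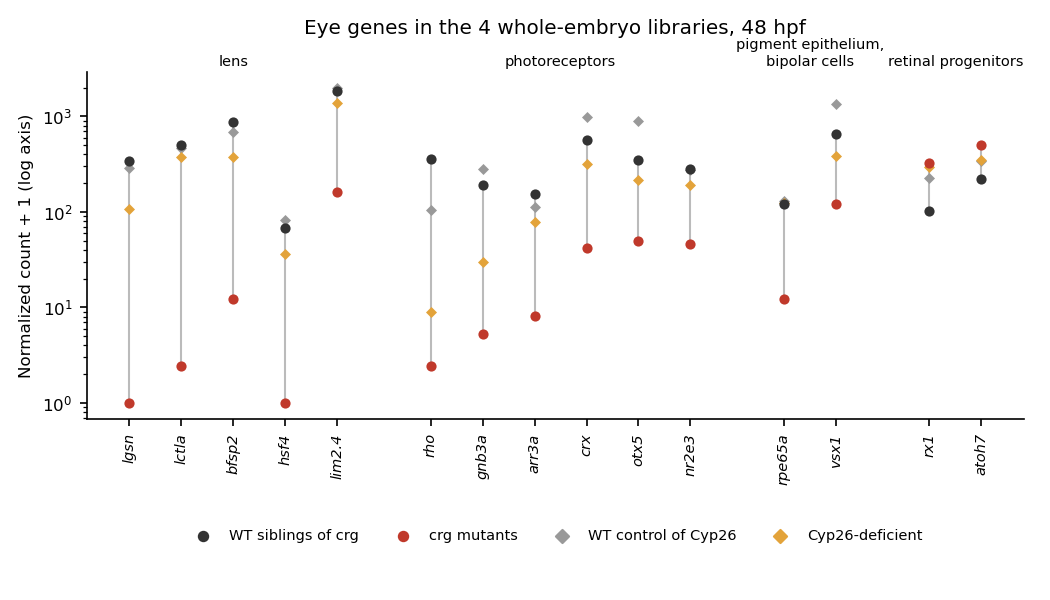
Normalized counts plus 1 (log axis) of 15 eye genes in the 4 whole-embryo libraries, 1 point per library, with a line joining WT siblings (black) and crg mutants (red). Crg mutants lie below both WT libraries for every lens, photoreceptor, pigment epithelium and bipolar cell gene shown, and above both for rx1 and atoh7.

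The direction of neural genes outside the eye depended on the list and on the WT library. Of 42 neural progenitor genes, 10 were raised and 3 lowered (median 0.33, but -0.59 against the other WT control), and 1 of the lowered, hmgb2a, was at -5.42 by its gene counts but at -0.43 by its exon sums. Of 44 neuron genes, 6 were raised and 3 lowered (median 0.22, but -1.22). WT siblings were themselves below the other WT control in these lists, by a median of -0.86 and -1.42, so the direction of these medians turns with the WT library. The lowered neuron genes were below both WT libraries. neurod6b, a factor of forebrain neurons, had 300 counts in WT siblings and 53 in crg mutants (log2 fold change -2.83, and -2.47 against the other WT control), its relative neurod2 had 9 and 0, and stxbp1b of synaptic vesicle release 52 and 12. The astroglial filament gene gfap, a lowered member of the progenitor list, had 960 and 428 counts and was at -2.37 against the other WT control. Neurotransmitter and neuropeptide genes, a list outside the 37, were lowered in 10 of 34 cases and raised in 3 (median -0.43, and -1.56 against the other WT control). Of the 10, 9 were also more than 2-fold below that control. Among them, gnrh3 of the neuroendocrine GnRH neurons had 31 and 1 counts, at least 13.1-fold lower.

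In the Notch pathway 8 of 43 genes were raised and 2 lowered, with the highest median of the 37 lists compared, 0.50, which was -0.23 against the other WT control. The raised members are mainly the her4 genes, Hes-type repressors that Notch switches on in neural progenitors. her4.1 had 128 counts in WT siblings and 552 in crg mutants, a log2 fold change of 1.76 (1.49 to 2.06). her4.5 had 56 and 275 counts, her4.4 had 135 and 475, her4.3 had 22 and 85, her4.2 had 75 and 314, and her12 had 184 and 606. All 6 lie on Zv9 chromosome 23 between 21739064 and 21765164, a stretch of 26101 bases. The her4 copies are near-identical, so the split of reads between them is uncertain. Against the other WT control, her4.1, her4.3, her4.4 and her4.5 stayed more than 2-fold higher, while her12 was 0.42 and her4.2 was -0.05 on the log2 scale. The ligand gene jag1a (89 and 294 counts) and the receptor gene notch1a (8 and 23 counts) were raised against WT siblings but lay at -0.51 and -0.60 against the other WT control. The Notch target heyl was lowered from 19 to 2 counts.

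Patterning genes of the midbrain and hindbrain were raised in 9 of 53 cases and lowered in 0, with a median of 0.18 (-0.54 against the other WT control). hoxb1a, which specifies rhombomere 4, had 25 counts in WT siblings and 141 in crg mutants, a log2 fold change of 2.13 (1.53 to 2.83), and was 1.88 above the other WT control on the log2 scale. Of the 9 raised genes, 3 were also more than 2-fold above the other WT control, among them wnt10b with 19 and 64 counts. wnt1 of the midbrain-hindbrain boundary had 17 and 65 counts, but was only 0.39 above the other WT control on the log2 scale. nkx2.1a was at 1.49 against WT siblings, but at -2.39 against the other WT control. Over the 49 hox genes tested, the 2 raised were hoxb1a and hoxc1a (47 and 144 counts). The lowered were 6, all from the posterior groups (paralogues expressed in the tail and fins). hoxd13a had 52 and 15 counts, hoxd12a 100 and 30, and hoxa13b 93 and 33. Of the 6, 1 (hoxd12a) was also more than 2-fold below the other WT control.

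The heart was examined next, since the study asks what Hdac1 does in the developing heart. Of 19 heart muscle genes, 9 were lowered and 1 raised, with a median log2 fold change of -0.996. myl7, the myosin light chain of all cardiomyocytes, had 643 counts in WT siblings and 215 in crg mutants, a log2 fold change of -1.92 (-2.15 to -1.70). The ventricular myosin vmhcl had 1006 and 430 counts, its partner vmhc 1022 and 606, the light chain cmlc1 368 and 167, and the troponin tnni1b 236 and 97. The atrial myosin myh6 was at -0.87 (-1.18 to -0.58), within 2-fold. WT siblings exceeded the other WT control in this list by a median of 0.999 on the log2 scale. Against that control the median was -0.17, 0 of the 9 lowered genes were past 2-fold, and myl7 was at -0.53. tcap, the titin cap of heart and skeletal muscle sarcomeres, was the raised member, with 14 and 98 counts.

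The second heart field supplies later cardiomyocytes and the smooth muscle of the outflow tract. Of its 25 genes tested, 8 were lowered and 0 raised (median -0.43, and -0.31 against the other WT control), and 6 of the 8 were also more than 2-fold below the other WT control. Most of these are smooth muscle or elastic fibre genes. tagln, transgelin, had 21 counts in WT siblings and 3 in crg mutants, at least 8.87-fold lower, and mylka, a myosin light chain kinase, 17 and 2. myh11a, smooth muscle myosin, had 60 and 17 counts, and fbln5, an elastic fibre gene, 202 and 49 (log2 fold change -2.37, -2.87 to -1.93). ltbp3, a marker of the second heart field, had 138 and 59 counts, -1.56 against WT siblings and -1.42 against the other WT control. nkx2.5 (32 and 11 counts) and elnb (20 and 7) were lowered against WT siblings, but were at -0.81 and -0.02 against the other WT control. Of the other heart field genes named in the study, mef2cb was at -0.07 (-0.35 to 0.22), tbx1 at -0.39, hand2 at -0.89 and gata4 at 0.29, none past 2-fold. ripply3 had 2 counts in WT siblings and 6 in crg mutants and a mean under the filter, and its interval of -1.24 to 4.58 spans 0.

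Genes of the arch skeleton, fins and matrix were lowered more often than raised. In the pharyngeal arch skeleton list 14 of 54 genes were lowered and 0 raised, with a median of -0.67 (-0.63 against the other WT control, which 11 of the 14 were also more than 2-fold below). The largest decrease in the list was that of col10a1 (ENSDARG00000054753, Zv9 chromosome 17, 15383316 to 15388101), which encodes collagen X of bone-forming and hypertrophic cells. It had 1981 counts in WT siblings, 1213 in the other WT control and 8 in crg mutants, a log2 fold change of -8.17 (-9.51 to -7.31). The osteoblast gene IFITM5, chosen after its values were seen, followed with 96 and 4 counts, whereas sp7, the factor of osteoblast identity, was at -0.41 and phospho1 of bone mineralization at -0.57, both within 2-fold. Cartilage genes varied, and several stayed within 2-fold, such as col2a1a at -0.67, sox9a at -0.67 and col9a2 at 0.38. The largest decreases among them were those of matn1 and acana. The matrilin matn1 had 34 and 2 counts, at least 14.4-fold lower, and the aggrecan acana 115 and 26. A pair of patterning factors of the arches was lowered with them, barx1 from 250 to 58 counts and gsc from 154 to 34, at -2.52 and -1.52 against the other WT control.

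Of 42 collagen genes, 8 were lowered and 2 raised (median -0.29, but 0.66 against the other WT control). Below col10a1 came col5a2b (144 and 12 counts) and col8a2, a network collagen (449 and 53). The most abundant, col1a1a, was at -0.82 with 71240 and 50997 counts, but 0.79 above the other WT control. Among 64 matrix proteases and inhibitors, 11 were lowered and 2 raised (median -0.43, but 0.12 against the other WT control). The crosslinking enzyme lox had 44 and 2 counts, at least 18.6-fold lower, and the proteoglycan bgna 21 and 0. serpine2, a protease inhibitor, was raised from 360 to 1481 counts (log2 fold change 1.70, and 1.80 against the other WT control).

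In the fins, 9 of 40 genes were lowered and 0 raised (median -0.39, but 0.00 against the other WT control). They comprise all 4 actinodin genes, which build the fibres of the larval fin fold. and2 had 15220 counts in WT siblings and 5304 in crg mutants, a log2 fold change of -1.86 (-1.91 to -1.82), and and1, and3 and and4 had 7684 and 3758, 3665 and 1330, and 133 and 33 counts. Against the other WT control and4 was the only actinodin past 2-fold (-1.59), while and2 was at -0.22 and and1 at 0.15.

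**Figure D4:**
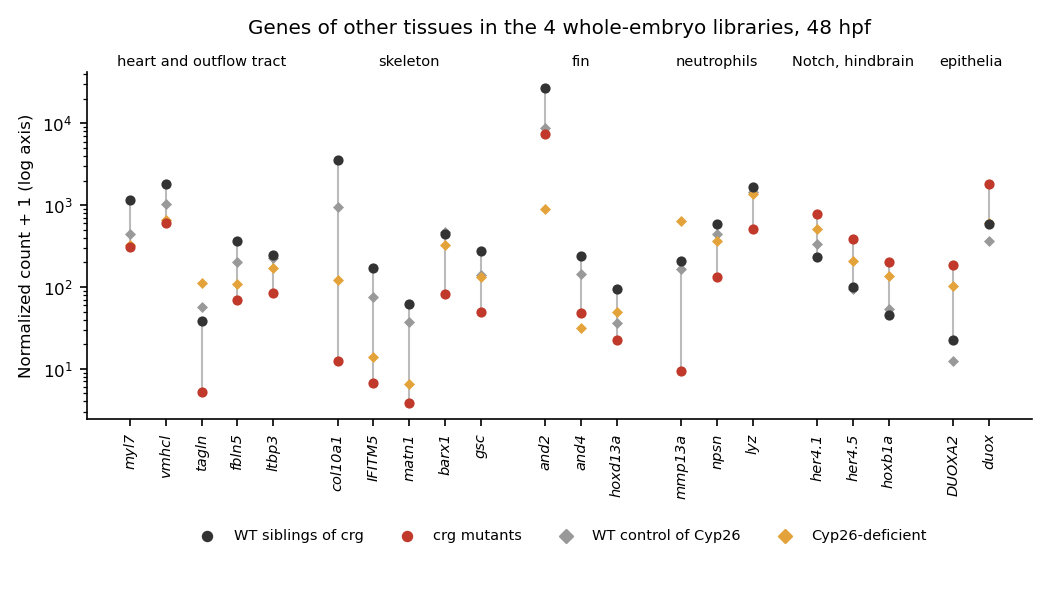
Normalized counts plus 1 (log axis) of 21 genes of the heart, skeleton, fin, neutrophils, Notch pathway and hindbrain, and epithelia in the 4 whole-embryo libraries, 1 point per library, with a line joining WT siblings (black) and crg mutants (red). Crg mutants are the lowest library for col10a1, IFITM5, barx1 and gsc, and the highest for her4.1, her4.5, hoxb1a and DUOXA2.

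No pigment cell gene was raised. In melanophores, 7 of 21 genes were lowered (median -0.89, and -0.42 against the other WT control). The melanin synthesis enzymes tyrp1b and dct had 2073 and 756, and 1214 and 570 counts, with log2 fold changes of -1.80 and -1.43, and the receptor mc1r had 34 and 10. pmela, the most abundant member, was at -0.89 with 2855 and 1952 counts. Of 26 xanthophore and iridophore genes 4 were lowered (median -0.19, but 0.25 against the other WT control), of which pnp4b alone was also more than 2-fold below the other WT control. They were led by the purine enzymes pnp4b (23 and 4 counts) and pnp4a (571 and 240), which iridophores use to make guanine.

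All skeletal muscle and epidermis genes past 2-fold were lowered. In both lists the lowered share was above the 7.78% of all genes tested. Of 49 skeletal muscle genes 5 were lowered and 0 raised (median -0.62, and -0.44 against the other WT control). Of the 5, 1 was also more than 2-fold below the other WT control. The 5 included the slow myosin smyhc2 (1027 and 405 counts) and mybpc1 (58 and 20), while the calcium pump atp2a1 was at -0.21 with 81626 and 89546 counts. In epidermis, 6 of 40 were lowered and 0 raised (median -0.44, but 0.49 against the other WT control). Only the keratins krt1-c5 (290 and 59 counts) and krt1-19d (289 and 70) were past 2-fold below both WT libraries. Hatching gland proteases were among the few abundant raised genes. he1a had 4057 counts in WT siblings and 12847 in crg mutants (log2 fold change 1.32, 1.27 to 1.37), he1b 855 and 2469, and ctsl1b 478 and 1743. Against the other WT control ctsl1b was 1.24 higher, he1a 0.27, and he1b -0.06. The ionocyte genes rhcga (16 and 1 counts) and atp1a1a.5 (73 and 17) were lowered. Ionocyte and hatching gland genes together had 3 of 26 raised and 5 lowered (median -0.32, but 0.23 against the other WT control).

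In the erythrocyte list, 2 of 24 genes were raised and 5 lowered (median -0.08, but 0.38 against the other WT control), and the globins split. hbz had 62 counts in WT siblings and 329 in crg mutants, a log2 fold change of 2.06 (1.67 to 2.48), and hbbe3 3229 and 9267, and both were more than 2-fold above the other WT control as well. The major globins hbae3 (31202 and 18646 counts) and 1 of the 2 hbbe1.1 entries (11693 and 6876) were lowered, at -1.08 and -1.11, and the other hbbe1.1 entry was at -0.60. Against the other WT control these were at -0.49, -0.78 and 0.41, none past 2-fold. Globin genes are close copies, so reads may be shared between them. Of 23 leukocyte genes 4 were lowered and 2 raised (median -0.30, and -0.10 against the other WT control). The 4 lowered genes are known from neutrophils or early myeloid cells, and all 4 were also more than 2-fold below the other WT control. Other myeloid members were within 2-fold of WT siblings, such as csf3r at -0.02 and cybb at -0.24. mmp13a, a collagenase, had 114 and 6 counts, the astacin-like npsn 331 and 92, the peroxidase mpx 497 and 173, and lysozyme lyz 926 and 358. The raised members were il1b (2 and 7 counts, interval -0.93 to 4.77) and mmp9 (110 and 284). mmp9 was at 1.02, and at 1.40 against the other WT control.

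Liver genes were lowered in 14 of 63 cases and raised in 1 (median -0.48, but 0.05 against the other WT control). Of the 14, 7 were also more than 2-fold below the other WT control. The tyrosine-degrading enzymes hpda and hpdb led, from 92 to 1 counts, at least 38.9-fold lower, and from 141 to 9. The urate oxidase uox had 74 and 5 counts and agxtb, an aminotransferase of glyoxylate, 69 and 6. Against the other WT control agxtb was at -0.32. The apolipoprotein apoa1a, the most abundant of the list, was at -0.51 with 60048 and 53324 counts. Of 12 exocrine pancreas genes 5 were lowered and 1 raised, with trypsin, try, at 46 and 6 counts. In sterol and lipid synthesis 10 of 42 genes were lowered and 2 raised (median -0.36, and -0.30). The very long chain elongase elovl4b had 136 and 21 counts, the desaturase fads2 37 and 8, and hmgcs1 and hmgcra of the mevalonate pathway 654 and 316, and 118 and 61. In the glycolysis list, which also holds gluconeogenesis genes such as fbp2, 9 of 44 were lowered and 0 raised (median -0.32, and -0.38). Among them were gpib (998 and 452 counts), fbp2 (402 and 161) and pgam2 (2220 and 1056).

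A pair of neighbouring raised genes produces hydrogen peroxide in epithelia. DUOXA2, the maturation factor of the dual oxidase, had 12 counts in WT siblings, 15 in the other WT control and 131 in crg mutants, a log2 fold change of 3.05 (2.25 to 4.1). Its partner duox, which produces hydrogen peroxide, had 330 and 1281 counts (1.61, and 2.31 against the other WT control). The genes are neighbours on Zv9 chromosome 25, on opposite strands and 2662 bases apart. Of 52 cilia genes, 9 were raised and 6 lowered (median 0.40, but 0.00 against the other WT control). The raised genes include the transport genes ift140 (149 and 480 counts), ift172 (286 and 756) and ift57 (86 and 260) and the BBSome-related bbs9 (29 and 137) and bbs12 (36 and 113). The lowered genes include tektins of motile cilia, tekt2 (18 and 2 counts) and tekt3 (10 and 3), and foxj1b (53 and 14), a regulator of motile cilia. Genes of motile cilia went both ways, since dnah9, dnah11 and ccdc65 were raised, at 2.08, 1.41 and 1.48. Against the other WT control these were at 1.59, 0.71 and -0.90.

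Chromatin and cell cycle genes changed little. hdac1 was the only 1 of 13 histone deacetylase and sirtuin genes past 2-fold, the others in class I being hdac3 at -0.71 (-0.89 to -0.53) and hdac8 at 0.37 (0.18 to 0.55). Of 46 corepressor genes (median 0.06, but -0.18 against the other WT control) 2 were raised and 0 lowered, namely the scaffold sin3aa (461 and 1561 counts, log2 fold change 1.42) and rcor3 of the CoREST complex (91 and 264, 1.19), and both were also more than 2-fold above the other WT control. Of 36 Polycomb genes (median 0.16, but -0.24), cbx7a was raised (25 and 153 counts) and phc3 lowered (19 and 2). DNA replication genes were raised in 2 of 60 cases and lowered in 0 (median 0.30), and mitosis genes were lowered in 1 of 56 and raised in 0 (median 0.16, but -0.02). Of 39 p53 target and cell death genes 5 were raised and 1 lowered (median 0.04). The raised genes were bcl2 (6 and 20 counts), ddb2 (106 and 332), bida (132 and 360), bbc3 (34 and 88) and casp9 (66 and 168). Of these, 2 (bida and bbc3) were also more than 2-fold above the other WT control. The lowered gene was phlda3, at -1.46, and at -1.53 against the other WT control. The cell cycle inhibitor cdkn1a was at 0.48 (-0.04 to 1.02). None of 82 cytoplasmic ribosomal protein genes (median 0.09) or 47 proteasome genes (median -0.23) was past 2-fold in either direction.

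Among signalling lists, 9 of 46 FGF pathway genes were lowered and 0 raised (median -0.27, and -0.42 against the other WT control), but the 4 lowest, fgf6b, fgf18a, fgf20a and fgf20b, had at most 17 counts in WT siblings. In the retinoic acid pathway 6 of 36 genes were lowered and 1 raised (median 0.12, but -0.13 against the other WT control). Of the lowered genes, 5 bind or carry retinoids and cyp26b1 degrades retinoic acid. Of the 6, 4 were also more than 2-fold below the other WT control. crabp1a had 63 counts in WT siblings and 8 in crg mutants, a log2 fold change of -3.21 (-4.59 to -2.25), and crabp2b 848 and 370. The plasma carrier rbp4 had 8332 and 4247 counts, but was at -0.55 against the other WT control. crabp2a was raised, at 215 and 547 counts, but was not more than 2-fold above the other WT control. Of the 3 degrading enzymes, cyp26b1 was lowered, from 438 to 269 counts (-1.04, -1.27 to -0.82, and -1.29 against the other WT control). cyp26a1 and cyp26c1 were at -0.15 (-0.39 to 0.09) and 0.60, within 2-fold.

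**Figure D5:**
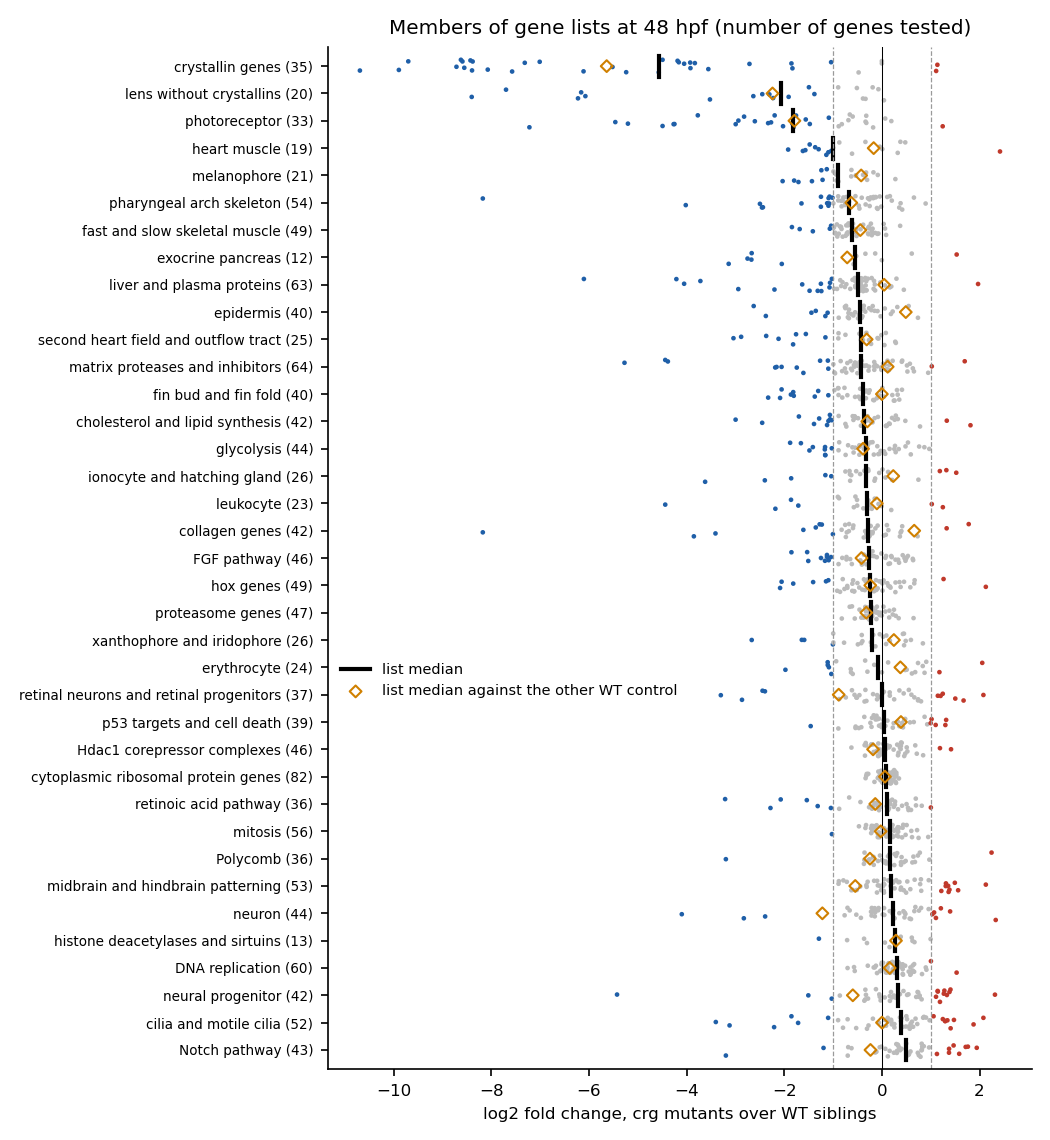
Log2 fold change of the members of 37 gene lists (crg mutants over WT siblings), 1 point per gene, red where raised and blue where lowered more than 2-fold, with the list median as a black bar and the median against the other WT control as an orange diamond. The crystallin, lens and photoreceptor lists have the lowest medians under both WT controls, and the neuron list moves from 0.22 to -1.22.

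Among genes whose mean normalized count was 50 or more and that have a descriptive name, the 15 with the largest decrease comprised 12 gamma-M crystallins (crygm2d genes, all within a stretch of chromosome 9 between 23124506 and 23372927) and lgsn, lctla and col10a1. The crygm2d genes are close copies, so the split of reads between them is uncertain and the 12 may not be separate decreases. The 15 with the largest increase had no such common tissue. After DUOXA2 and ankdd1a (8 and 120 counts) they included stc1l, a stanniocalcin that lowers calcium uptake (19 and 195), the kinase ulk4 (32 and 319), the parvalbumin pvalb7 (25 and 202), the monocarboxylate transporter slc16a9b (146 and 1046) and GLDC of glycine cleavage (121 and 795). OLIG3, a factor of dorsal neural progenitors, had 54 and 531 counts. The others were SDR42E2, chp2, efcab1, tcap and ttc23. Of the 15, 13 were also more than 2-fold above the other WT control. NRSN2 (4 and 43 counts) and GPR123 (2 of 3) (12 and 116) were below it, at -0.95 and -0.19.

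The Cyp26-deficient embryos of the same stage have a WT control of their own, and share no control with the crg pair. There, 697 of the 19888 genes (3.5%) were raised and 516 (2.59%) lowered. Several of the genes above had values past 2-fold in the same direction in that pair. DUOXA2 was at 3.02, slc16a9b at 1.97, hoxb1a at 1.3 and cbx7a at 2.74, and col10a1 was at -2.94, IFITM5 at -2.43 and and2 at -3.26. Others had values within 2-fold there, such as sin3aa at -0.15, myl7 at -0.43 and her4.1 at 0.60. Lens genes without crystallins had a median of -0.33 and photoreceptor genes of -0.54 in that pair, beside -2.07 and -1.81 in crg mutants. The nkx2.5:ZsYellow+ cells were sorted at 28 hpf and scaled separately, also with 1 library per condition. There, the library labelled Hdac1-depleted had more hdac1 counts than its control (30936 against 14519, a log2 fold change of 1.19). The study depleted Hdac1 with a morpholino oligonucleotide that it describes as inhibiting translation, so RNA counts do not measure the depletion. Of the genes named here that were past 2-fold in crg mutants and had at least 10 counts in a sorted library, 11 of 48 raised genes were more than 2-fold higher in that library and 4 were more than 2-fold lower. Of 92 lowered genes, 37 were more than 2-fold lower and 10 more than 2-fold higher. The share of all genes past 2-fold in the sorted cells was not computed, so these counts have no background. They cover only the genes named here and cannot tell whether the comparisons share a direction. hoxb1a (141 and 404 counts, control first) and rcor3 (25 and 90) were higher there, at 1.61 and 1.90, and ltbp3 (1264 and 564) was lower, at -1.06. rpe65a (55 and 1811) and nr2e3 (14 and 242), both lowered in crg mutants, were higher there, at 5.11 and 4.1, and cbx7a, raised in crg mutants, was at -0.42.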

How the data were processed

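Whole-embryo RNA (48 hpf) was sequenced with single-end, stranded reads and, per the methods, aligned to Zv9/danRer7 in Strand NGS and compared by DESeq. The authors deposited expected counts per gene and exon, not normalized, which were rounded to whole numbers here. Every column of per-sample values matched a sample of the series. Transcript entries, which hold shares of a gene, were not used, and of the sorted-cell table only the Hdac1 pair was compared, with size factors over its 4 libraries.

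Size factors were median-of-ratios values over the 4 whole-embryo libraries (DESeq2 1.42.0 in R 4.3.3, with TMM factors from edgeR 4.0.16), namely 0.559 for WT siblings and 0.708 for crg mutants. Library totals were 11070210 and 12545823 counts. Genes averaging 10 or more normalized counts were kept, log2 fold changes used a pseudocount of 1, and a gene was called raised or lowered past 2-fold. With 1 library per condition no test was run. Intervals are 95% exact conditional (Clopper-Pearson) limits (scipy 1.17.1) and cover counting error only. Where the lower library had 3 counts or fewer, the fold is a bound computed from 3 counts. Gene names are those of the table. The calculations were checked on simulated data.

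Named genes were hdac1 and genes the study names, the 15 raised and 15 lowered genes of largest change with a mean of at least 50, a descriptive symbol and an interval wholly past 2-fold, and in each list up to 4 raised and 4 lowered members and the most abundant one. Others were chosen after their values were seen. The members and lists were chosen with earlier results of these data known. Alternatives were other scalings, pseudocounts, filters, limits and the other WT control, and exon sums, added after seeing the data. A result that is withheld is not reported here.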

Additional observations from a re-analysis of the deposited data

How the results depend on the processing

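The counts of 1279 raised and 1548 lowered genes held within 1.5-fold under TMM factors, total counts, size factors of the crg pair, a pseudocount of 0.1, a filter on the crg pair and exon sums. They became 2426 and 3295 with the other WT control, 2515 and 2826 without a filter, 692 and 802 where the normalized counts had to average 50, 158 and 470 at 4-fold, and 227 and 564 where the counting interval had to pass 2-fold. A pseudocount of 10 left 799 raised genes. The log2 fold change of hdac1 was -1.13 with total counts and -2.14 with the other WT control. Of 184 named entries, 21 changed sign with the other WT control and 4, all within 2-fold, with total counts. Of the 21, 10 had been past 2-fold: GPR123 (2 of 3) to -0.19, NRSN2 to -0.95, and1 to 0.15, he1b to -0.059, her4.2 to -0.054, il1b to -0.38, jag1a to -0.51, notch1a to -0.60, rx3 to -1.55 and vmhc to 0.31. Some genes named above are not among the 184 entries and also changed sign from past 2-fold. Examples are opn1lw2 (-2.99 to 0.48) and nkx2.1a (1.49 to -2.39). Each list median was compared with the median lower and the median upper counting limit of its members, which is not an interval of the median itself. Of the 37 list medians, 17 left this range with that control and 8 with total counts. The cause was not tested. No replicate could be left out and no paired analysis was possible because each condition has 1 library. The counting intervals leave out biological variation, and genes under 30 normalized counts passed 2-fold most often.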

Other observations

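Some genes of steroid synthesis and response, from no list and chosen after their values were seen, are given here with values only. fkbp5, a chaperone that glucocorticoids induce (Zv9 chromosome 6, 41026922 to 41046917), had 417 counts in WT siblings, 621 in the other WT control and 9 in crg mutants, a log2 fold change of -5.77 (95% exact counting interval -7.01 to -4.94). It was at -0.66 in Cyp26-deficient embryos. star, which delivers cholesterol for steroid synthesis, had 98 counts in WT siblings and 17 in crg mutants. The steroid hydroxylase gene cyp11c1 had 16 and 1, cyp17a2 had 7 and 1, and cyp21a2 had 6 and 1, and the interval of cyp21a2, -8.45 to 0.12, spans 0. hsd11b2, which inactivates cortisol, had 420 and 176 counts. The glucocorticoid receptor gene nr3c1 was within 2-fold, at 0.18, with 505 and 727 counts.

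The tyrosine breakdown enzymes moved unevenly. hpda and hpdb, copies of the same second step, were at 1 and 9 counts in crg mutants beside 92 and 141 in WT siblings. The first enzyme, tat, was at -0.14, and the later enzymes hgd and fah were at -0.64 and -0.10, none past 2-fold. pah, which makes tyrosine, was lowered from 686 to 368 counts.

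For 1 gene of the neural progenitor list the gene and exon values differed. hmgb2a, a chromatin protein of dividing cells, had 3036 gene counts in WT siblings and 89 in crg mutants, a log2 fold change of -5.42, whereas its exon values summed to 93 and 87, a log2 fold change of -0.43. In the other WT control the gene and exon values were 6935 and 7396. The cause of the mismatch in WT siblings was not tested.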
